A study of Mus musculus with 17 samples.

Results

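The 41 genes described here build and run the mitotic spindle, join it to the chromosomes and compact the chromosomes for division. They were chosen as a named set of symbols, before any filter but with earlier results of these data known, out of 20624 RefSeq messenger RNA entries. Where a gene had several entries, the entry with the highest mean over all libraries stood for it. Of the 41 genes, 38 reached 1 RPKM in at least 2 libraries and were tested among 10668 such entries. RPKM is a read count scaled to the length of the transcript and to the size of the library, so levels of different genes can be set side by side. Bub1, Tpx2 and Cenpk reached 1 RPKM in 0 libraries and were not tested.

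Both ventricles of male C57Bl/6 mice, the left (LV) and the right (RV), gave total RNA that was sequenced in pairs from strand-specific libraries. The 17 libraries covered postnatal days 0, 3 and 7 (P0, P3 and P7). There were 3 LV libraries and 3 RV libraries at P0 and at P3, 3 LV libraries at P7, and 2 RV libraries at P7. The labels call them biological replicates and place P0 ahead of closure of the ductus arteriosus, P3 in a transition, and P7 at the time most cardiomyocytes finish differentiating. The labels name no genotype or treatment that separates the groups. They do not say whether LV and RV libraries that share a number also share a mouse. The RNA came from whole ventricle, so every cell type of the wall contributed to each value.

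In a dividing cell, duplicated chromosomes are compacted by condensin and topoisomerase, and a kinetochore forms on each centromere to bind the spindle's microtubules. Kinesin motors separate and focus the spindle poles, while the checkpoint holds back the anaphase-promoting complex until every kinetochore is attached. That complex, charged by Cdc20, then marks securin and the cyclins for destruction, and separase cuts the cohesin that joins sister chromatids. Transcripts of most of these genes are made mainly around the time of division, through promoter elements called CCAAT boxes and cell cycle genes homology regions. In the mouse, cardiomyocytes stop dividing in the first days after birth, after a last round of nuclear division without cell division.

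Many promoter windows of the set held these short elements. In some, such as those of Aurka and Plk1, the homology region lay after the start. Of the 24 windows that carry both elements, 6 are shown in part, as stretches that hold both before the start. Each is the 120 bases just upstream of the annotated start in the RefSeq promoter table (build GRCm38.p6), written 5′ to 3′ on the gene's own strand. Capitals mark CCAAT or its reverse complement ATTGG, and the homology regions TTTGAA or TTCAAA and TTCGAA.
Ube2c: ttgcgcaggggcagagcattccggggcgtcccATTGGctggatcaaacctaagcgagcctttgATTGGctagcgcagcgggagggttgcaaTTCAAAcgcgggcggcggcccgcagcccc
Cdc20: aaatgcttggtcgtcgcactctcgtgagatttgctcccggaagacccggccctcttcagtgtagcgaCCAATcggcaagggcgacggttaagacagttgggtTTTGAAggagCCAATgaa
Top2a: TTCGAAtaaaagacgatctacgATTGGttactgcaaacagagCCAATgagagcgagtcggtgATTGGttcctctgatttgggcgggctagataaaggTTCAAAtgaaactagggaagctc
Kif11: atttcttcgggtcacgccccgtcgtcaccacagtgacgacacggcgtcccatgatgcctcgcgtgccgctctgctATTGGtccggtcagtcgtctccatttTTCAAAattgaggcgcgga
Espl1: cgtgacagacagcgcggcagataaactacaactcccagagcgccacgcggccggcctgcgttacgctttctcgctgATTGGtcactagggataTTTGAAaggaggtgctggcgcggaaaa
Kif22: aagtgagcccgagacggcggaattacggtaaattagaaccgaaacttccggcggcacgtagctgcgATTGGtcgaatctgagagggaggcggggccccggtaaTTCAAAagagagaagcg
The stretches lie at chr2:164769809-164769928 on the plus strand for Ube2c, chr4:118437344-118437463 on the minus strand for Cdc20 and chr11:99024190-99024309 on the minus strand for Top2a. Those of Kif11, Espl1 and Kif22 lie at chr19:37376262-37376381 on the plus strand, chr15:102296173-102296292 on the plus strand and chr7:127042421-127042540 on the minus strand. In Kif11 the CCAAT element began 45 bases and the homology region 19 bases upstream of the start. In the printed stretch of Ube2c the CCAAT elements began 88 and 57 bases upstream and the homology region 29 bases upstream. The printed stretch of Top2a held 3 CCAAT elements, and its 2 homology regions began 23 and 120 bases upstream. The whole windows, which are longer, held 6 CCAAT elements in Ube2c, and 6 CCAAT elements and 4 homology regions in Top2a.

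The table held 40 windows of 300 bases (250 before to 50 after the start) for 37 of the 41 genes. CCAAT, read on both strands, was in 30 of the 40 windows (75%), against 37.4% of all 32851 windows of the table. TTTGAA, on both strands, was in 26 windows (65%) against 17.9% of all, and the palindrome TTCGAA in 3 (7.5%) against 1.56%. Both a CCAAT and a homology region were in 24 windows (60%) against 7.52% of all. A match was counted whether or not it overlapped another. These are letter matches and not measured binding sites, and 29 of 37 genes had a window start within 100 bases of the start of the entry measured here. For the other 8 genes, whose windows are in the counts above, the nearest window start lay farther off, by 3867 bases for Kif2c, 488 for Cdca3, 328 for Kif4, 270 for Pttg1, 247 for Mad2l1, 148 for Bub3, 115 for Ncapd2 and 109 for Cenpa. Kif18a, Mad2l1, Melk, Ncaph, Nuf2, Nusap1 and Pttg1 had neither element in their windows.

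Library depth was 27561845 to 41061058 reads (median 36153964), recovered from the values, and a tested gene of the set held 17 to 25737 reads per library (median 1160). Within an age, an LV and an RV library of the same number deviated together. Replicate 2 at P3 had the lowest median level of the set in both chambers (9.25 RPKM in the LV and 7.24 in the RV). Replicate 3 at P3 had the highest, at 16.4 and 12.1 RPKM, and replicate 1 stood highest at P0. Nnt encodes a mitochondrial transhydrogenase that is known to differ between C57BL/6 substrains. Its entry NM_008710 read 0.128 to 0.205 RPKM in 7 libraries and at least 2.99 in the other 10. The 7 were replicates 2 and 3 at P3 in both chambers, replicates 2 and 3 at P7 in the LV and replicate 2 at P7 in the RV. Every P0 library was among the other 10, so a low Nnt reading was partly confounded with age. The part of the 7 libraries in the results was not tested beyond the values without them given below.

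Between P0 and P7 the set fell almost as a whole in both chambers. Because the set was chosen with earlier results of these data known, its counts describe it and are not an independent test. In the LV, 37 of the 38 tested genes fell and 1 rose, where 53% of all tested entries were called lower and 11.8% higher. In the RV, 37 fell and none was called higher, where 46.1% of all entries were lower and 9.81% higher. The 37 of each chamber include Ttk and Spc25, which passed the filter through the earlier ages alone. The set's median log2 change was -1.23 for the LV and -0.99 for the RV, beside -0.31 and -0.29 over all tested entries. All changes are on the scale of log2(RPKM + 1), and calls are adjusted p under 0.05 in limma with Benjamini-Hochberg adjustment over the 10668 entries. In bulk RNA, fewer dividing cells and less of these transcripts per cell cannot be told apart.

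The level of the whole table also moved with age. Scaling each library to its upper quartile instead of its reads shifted the all-entry median of the LV change from -0.31 to -0.02 and that of the RV from -0.29 to -0.02. With that scaling the LV split over all entries was 2698 lower and 2604 higher, against 5658 and 1264 as deposited. The set's medians became -0.90 and -0.71, with 36 of 38 genes lower in the LV (25.3% of all entries) and 34 in the RV (20.6%). Cenpa lost its call in both chambers, and Bub3 and Mki67 theirs in the RV.

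**Figure D1:**
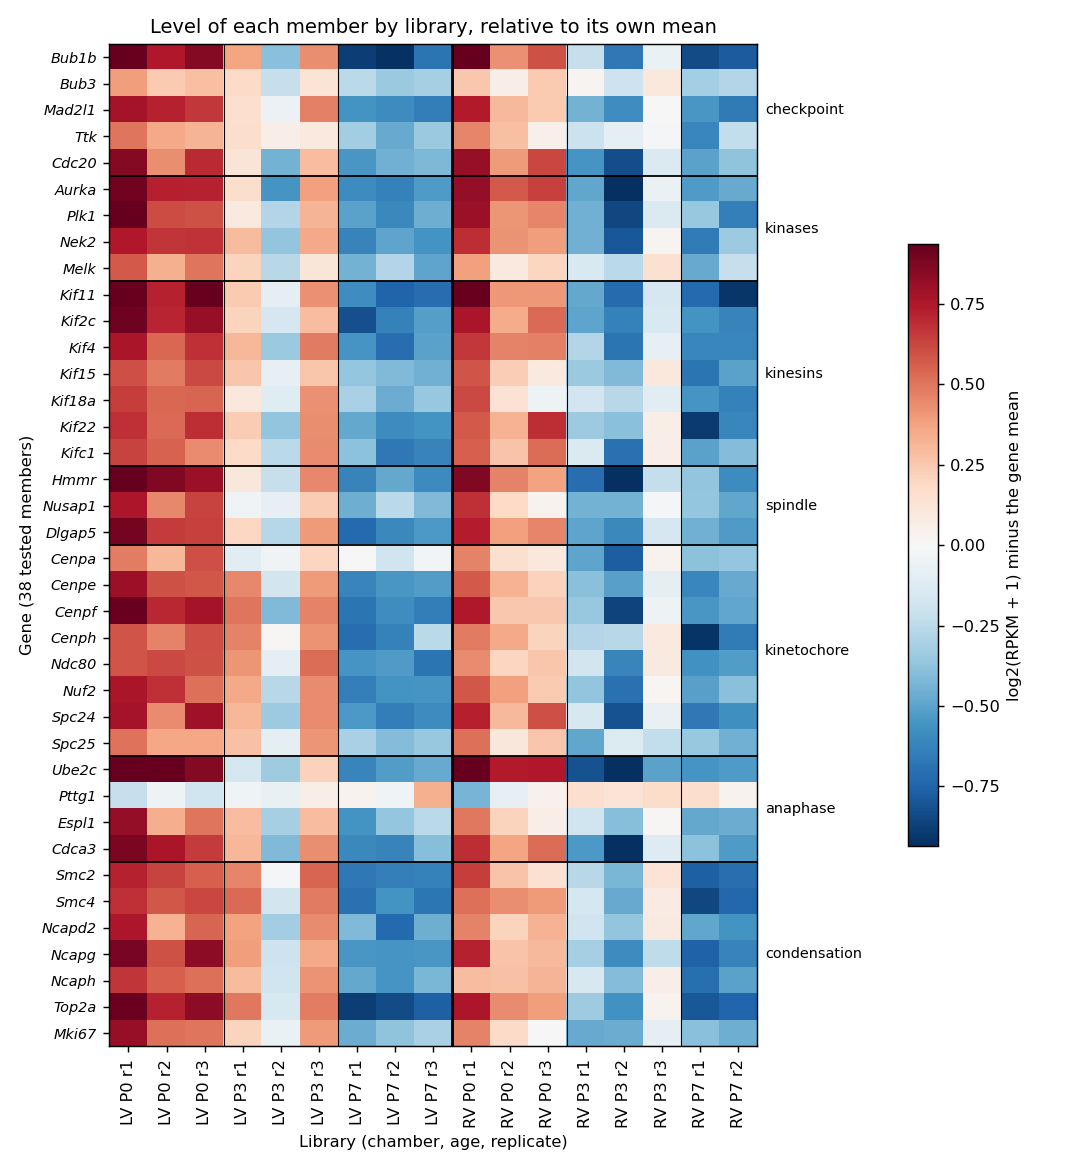
Level of the 38 tested genes in the 17 libraries, as log2(RPKM + 1) minus each gene's own mean over the libraries (colour, saturating at the ends of the scale), with genes grouped by role and libraries by chamber, age and replicate (r). Nearly every gene is high at P0 and low at P7; the P3 columns differ between chambers and between replicates, with replicate 2 lowest, and Pttg1 runs the other way.

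The checkpoint group held Bub1b, Bub3, Mad2l1, Ttk and the anaphase activator Cdc20, and all 5 tested genes fell in both chambers by P7. The highest gene of a group is meant here by its mean over all 17 libraries. Bub1b (NM_009773, chr2:118598202-118641592) encodes BubR1, the pseudokinase that restrains Cdc20, and had the largest fall of the set in both chambers. Positions are those of the RefSeq gene table of GRCm38.p6. In the LV, Bub1b read 30.9, 25.3 and 27.4 RPKM at P0, 19.2, 10.97 and 20.1 at P3 and 7.52, 7.27 and 8.77 at P7. Bub1b in the RV read 29.6, 20.1 and 22.7 RPKM at P0, 12.5, 8.87 and 13.99 at P3 and 7.76 and 8.14 at P7. Within each chamber every P7 library lay below every P0 library, and the P3 libraries lay between them. The fall was -1.70 ± 0.18 (SE) in the LV (adjusted p = 3.28e-07) and -1.47 ± 0.21 in the RV (adjusted p = 1.23e-05). Bub3 (NM_009774, chr7:131560367-131571895), the adaptor that carries Bub1 and BubR1 to kinetochores and also works outside mitosis, had the highest such mean of the group and moved least, although Mad2l1 was above it at P0 in both chambers. In the LV, Bub3 read 52.5, 47.5 and 48.7 RPKM at P0, 45.4, 34.3 and 43.7 at P3 and 33.3, 31.1 and 31.9 at P7. Bub3 in the RV read 47.8, 41.8 and 47.4 RPKM at P0, 40.6, 34.8 and 42.8 at P3 and 31.8 and 32.8 at P7. The P0 and P7 libraries did not overlap, and the fall was -0.61 ± 0.10 in the LV (adjusted p = 4.91e-05) and -0.48 ± 0.11 in the RV (adjusted p = 0.00167). Mad2l1, the Cdc20-binding checkpoint protein, fell from a mean of 56.7 to 22.1 RPKM in the LV and from 46.6 to 22.0 in the RV. Ttk, the kinase that starts checkpoint signalling, stayed under 1 RPKM in every P7 library and passed the filter through the earlier ages alone. Bub1 was near the floor, with group means of 0.0790 to 0.263 RPKM over its better entry of 2. Ttk, Tpx2, Nusap1, Spc25 and Pttg1 also have several entries, and how reads shared by entries were counted is not given in the sources.

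Of the mitotic kinases, Aurka, Plk1, Nek2 and Melk all fell in both chambers by P7. Plk1 (NM_011121, chr7:122159435-122169884), which drives centrosome maturation and mitotic entry, had the highest mean of the 4 over all libraries. In the LV, Plk1 read 33.2, 25.8 and 25.5 RPKM at P0, 17.7, 13.5 and 20.8 at P3 and 11.4, 10.5 and 11.8 at P7. Plk1 in the RV read 29.7, 22.3 and 22.97 RPKM at P0, 11.8, 8.73 and 14.95 at P3 and 12.7 and 10.2 at P7. RV P3 and P7 libraries overlapped, while the LV P3 libraries all stayed above every LV P7 library. Its P7 against P0 change was -1.24 ± 0.17 in the LV (adjusted p = 4.33e-06) and -1.06 ± 0.19 in the RV (adjusted p = 0.000134). Aurka (NM_011497, chr2:172356190-172370886) encodes Aurora A, the kinase of the spindle poles. In the LV, Aurka read 30.3, 26.8 and 26.6 RPKM at P0, 17.8, 10.4 and 20.9 at P3 and 10.2, 9.84 and 10.6 at P7. Aurka in the RV read 28.7, 23.99 and 25.2 RPKM at P0, 10.95, 6.91 and 15.1 at P3 and 10.6 and 11.1 at P7. P3 replicate 2 lay below or within the P7 range in each chamber, and the P0 libraries stood above all later ones. Aurka fell by P7 with a log2 change of -1.36 ± 0.20 in the LV (adjusted p = 1.46e-05) and -1.18 ± 0.23 in the RV (adjusted p = 0.000309). Melk (NM_010790, chr4:44300909-44364675), a kinase present in proliferating progenitors, was low throughout. In the LV, Melk read 2.68, 2.13 and 2.51 RPKM at P0, 1.87, 1.07 and 1.69 at P3 and 0.83, 1.05 and 0.764 at P7. Melk in the RV read 2.23, 1.64 and 1.85 RPKM at P0, 1.25, 1.08 and 1.74 at P3 and 0.788 and 1.14 at P7. It reached 1 RPKM in 2 of the 5 P7 libraries, and its RV change by P3 (-0.31, adjusted p = 0.1) was not called, although it fell by P7 (-0.57, adjusted p = 0.00485).

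All 7 kinesins fell by P7 in both chambers, with median log2 changes of -1.17 in the LV and -1.14 in the RV. Kif11 (NM_010615, chr19:37376382-37421863) encodes Eg5, the motor that pushes spindle poles apart, and was the highest. In the LV, Kif11 read 37.8, 30.9 and 37.4 RPKM at P0, 21.99, 17.2 and 25.1 at P3 and 11.96, 10.5 and 10.8 at P7. Kif11 in the RV read 35.97, 24.7 and 24.7 RPKM at P0, 12.9, 10.8 and 16.4 at P3 and 10.7 and 9.32 at P7. Ages did not overlap in the LV, and in the RV the lowest P3 library (10.8) was just above the higher P7 library (10.7). The P7 against P0 change was -1.58 ± 0.16 in the LV (adjusted p = 1.09e-07) and -1.40 ± 0.18 in the RV (adjusted p = 3.28e-06). The microtubule depolymerase Kif2c fell with log2 changes of -1.47 and -1.14, and the chromokinesins Kif4 and Kif22 by -1.25 and -1.17 in the LV. Kif15, another spindle motor, Kif18a, which dampens chromosome movement, and the minus-end motor Kifc1 fell with log2 changes of -0.97, -0.95 and -1.10 in the LV and by -0.89, -0.83 and -0.90 in the RV.

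Of the spindle assembly factors, Hmmr, Nusap1 and Dlgap5 fell by P7 in both chambers. Hmmr (NM_013552, chr11:40701388-40733464) encodes a microtubule-binding protein that works with Tpx2 at the poles. In the LV, Hmmr read 39.8, 35.6 and 34.2 RPKM at P0, 20.6, 16.3 and 26.4 at P3 and 12.02, 13.4 and 12.3 at P7. Hmmr in the RV read 35.6, 26.6 and 25.1 RPKM at P0, 11.2, 8.02 and 16.2 at P3 and 14.6 and 12.4 at P7. In the RV, replicates 1 and 2 at P3 lay below both P7 libraries, whereas all LV P3 libraries lay above the LV P7 range. The P7 against P0 change was -1.47 ± 0.19 in the LV (adjusted p = 2.03e-06) and -1.04 ± 0.21 in the RV (adjusted p = 0.000373). Dlgap5, which stabilises kinetochore fibres, fell with log2 changes of -1.35 and -1.02, and Nusap1, a microtubule bundler, by -0.98 and -0.73. The best of the 5 Tpx2 entries never passed 0.236 RPKM.

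All 8 centromere and kinetochore genes that passed the filter fell in both chambers by P7, with medians of -1.20 in the LV and -0.88 in the RV. Nuf2 (NM_023284, chr1:169497934-169531464), with Ndc80, Spc24 and Spc25, forms the complex that grips microtubules, and was the highest of the group. In the LV, Nuf2 read 29.6, 27.9 and 24.7 RPKM at P0, 22.1, 14.1 and 23.5 at P3 and 10.6, 11.3 and 11.3 at P7. Nuf2 in the RV read 25.9, 22.5 and 20.3 RPKM at P0, 12.98, 10.1 and 17.2 at P3 and 11.7 and 12.7 at P7. The LV P3 libraries all exceeded the LV P7 libraries, while RV P3 and RV P7 overlapped. Nuf2 changed by -1.24 ± 0.17 in the LV (adjusted p = 4.09e-06) and -0.85 ± 0.19 in the RV (adjusted p = 0.000819). Cenph (NM_021886, chr13:100759674-100775903) belongs to the constitutive centromere network beneath it. In the LV, Cenph read 6.82, 6.19 and 6.9 RPKM at P0, 6.17, 4.26 and 5.95 at P3 and 2.18, 2.36 and 3.37 at P7. Cenph in the RV read 6.29, 5.67 and 5.03 RPKM at P0, 3.31, 3.34 and 4.56 at P3 and 1.76 and 2.31 at P7. In both chambers every P7 library lay below every P3 library, and the P7 against P0 change was -1.08 ± 0.15 in the LV (adjusted p = 4.37e-06) and -1.13 ± 0.16 in the RV (adjusted p = 1.65e-05). Cenpa (NM_007681, chr5:30666877-30674837), the histone H3 variant that marks the centromere, changed less. In the LV, Cenpa read 11.4, 10.1 and 12.5 RPKM at P0, 7.29, 7.71 and 9.23 at P3 and 7.91, 6.82 and 7.75 at P7. Cenpa in the RV read 11.3, 8.89 and 8.51 RPKM at P0, 5.32, 4.21 and 8.09 at P3 and 5.83 and 5.93 at P7. LV P3 and P7 libraries overlapped, and so did those of the RV. Its P7 against P0 change was -0.53 ± 0.16 in the LV (adjusted p = 0.00590) and -0.61 ± 0.17 in the RV (adjusted p = 0.00662). The motor Cenpe and the corona protein Cenpf fell with log2 changes of -1.22 and -1.44 in the LV and by -0.91 and -0.93 in the RV. Spc25 stayed under 1 RPKM in every P7 library and, like Ttk, passed the filter through the earlier ages alone. The Cenpk entry never passed 0.237 RPKM.

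Of the anaphase genes, Ube2c, Espl1 and Cdca3 fell by P7 in both chambers, and Pttg1 did not. Ube2c (NM_026785, chr2:164769929-164772902), the ubiquitin-conjugating enzyme that serves the anaphase-promoting complex, had the highest mean of the set. In the LV, Ube2c read 191.6, 176.8 and 163.1 RPKM at P0, 79.8, 70.9 and 103.8 at P3 and 57.8, 61.95 and 63.997 at P7. Ube2c in the RV read 180.8, 150.4 and 150.7 RPKM at P0, 50.3, 39.9 and 62.8 at P3 and 60.8 and 61.5 at P7. The RV was lowest at P3, where replicates 1 and 2 lay below both RV P7 libraries. Mean Ube2c at P0 was 2.89 times that at P7 in the LV and 2.63 times in the RV, with changes of -1.51 ± 0.14 (adjusted p = 4.40e-08) and -1.37 ± 0.16 (adjusted p = 1.12e-06). Espl1 encodes separase and fell with log2 changes of -0.94 in the LV and -0.73 in the RV, and Cdca3, a trigger of mitotic entry, by -1.31 and -0.98.

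Pttg1 (NM_001131054, chr11:43420244-43427463) encodes securin, the inhibitor of separase, and was the exception of the set. In the LV, Pttg1 read 32.9, 37.1 and 33.6 RPKM at P0, 37.3, 36.5 and 40.1 at P3 and 39.3, 37.4 and 48.5 at P7. Pttg1 in the RV read 28.1, 36.4 and 39.4 RPKM at P0, 42.8, 42.01 and 43.4 at P3 and 43.1 and 39.3 at P7. All 3 LV P7 libraries were above all 3 LV P0 libraries, and in the RV replicate 1 at P0 was the lowest library. Its P7 against P0 change was 0.26 ± 0.11 in the LV (adjusted p = 0.0475), 0.26 ± 0.12 in the RV (adjusted p = 0.0881, and 0.0440 with the number within an age as a block, which called 10.2% of all entries higher). The RV rose by 0.31 ± 0.11 from P0 to P3 (adjusted p = 0.0403). These calls were not stable. Without LV P7 replicate 3 the LV change was 0.15 (adjusted p = 0.267), and without RV P0 replicate 1 the RV change by P3 was 0.17 (adjusted p = 0.243). Of the 29 fits run, 14 made the LV call by P7 and 20 the RV call by P3. With upper-quartile scaling the changes by P7 were 0.61 in the LV (adjusted p = 0.000632) and 0.57 in the RV (adjusted p = 0.00335). Both were called there, where 24.4% of all entries in the LV and 19.8% in the RV were higher. Pttg1 has 2 entries, and the value is that of the higher one.

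All 7 genes of chromosome condensation and the chromosome periphery fell by P7 in both chambers, with medians of -1.27 and -1.09. Smc4 (NM_133786, chr3:69004738-69034623) and Smc2 (NM_008017, chr4:52439221-52488365) form the condensin core that loops chromosomes, and Smc4 had the highest mean of the group over all libraries. In the LV, Smc4 read 76.98, 71.9 and 73.8 RPKM at P0, 68.99, 42.1 and 66.98 at P3 and 28.96, 31.9 and 29.4 at P7. Smc4 in the RV read 68.6, 64.6 and 63.1 RPKM at P0, 42.3, 34.1 and 50.3 at P3 and 25.95 and 28.2 at P7. In the LV, P3 replicates 1 and 3 lay close to the P0 range and all P7 libraries were clear below. Smc4 changed by -1.27 ± 0.15 in the LV (adjusted p = 6.01e-07) and -1.24 ± 0.16 in the RV (adjusted p = 5.40e-06). In the LV, Smc2 read 22.97, 21.6 and 20.4 RPKM at P0, 18.999, 13.4 and 20.2 at P3 and 8.18, 8.37 and 8.39 at P7. Smc2 in the RV read 21.8, 16.6 and 15.1 RPKM at P0, 11.2, 9.85 and 14.9 at P3 and 7.57 and 7.95 at P7. Each LV P3 library of Smc2 lay above every LV P7 library, with the same order in the RV. Top2a (NM_011623, chr11:98992947-99024199), the topoisomerase that untangles sister chromatids, changed nearly as much as Bub1b in the LV and was above Smc4 at LV P0. In the LV, Top2a read 85.4, 73.96 and 80.4 RPKM at P0, 63.1, 40.1 and 62.3 at P3 and 23.7, 24.5 and 25.8 at P7. Top2a in the RV read 76.1, 60.98 and 58.8 RPKM at P0, 35.2, 29.7 and 45.6 at P3 and 25.3 and 26.2 at P7. The 3 ages of Top2a did not overlap in either chamber. It changed by -1.66 ± 0.15 in the LV (adjusted p = 4.76e-08) and -1.30 ± 0.17 in the RV (adjusted p = 6.10e-06). The condensin subunits Ncapd2, Ncapg and Ncaph fell with log2 changes of -1.07, -1.32 and -1.06 in the LV. Mki67, whose product coats mitotic chromosomes, fell from a mean of 54.1 to 26.7 RPKM in the LV and from 41.02 to 25.8 in the RV.

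**Figure D2:**
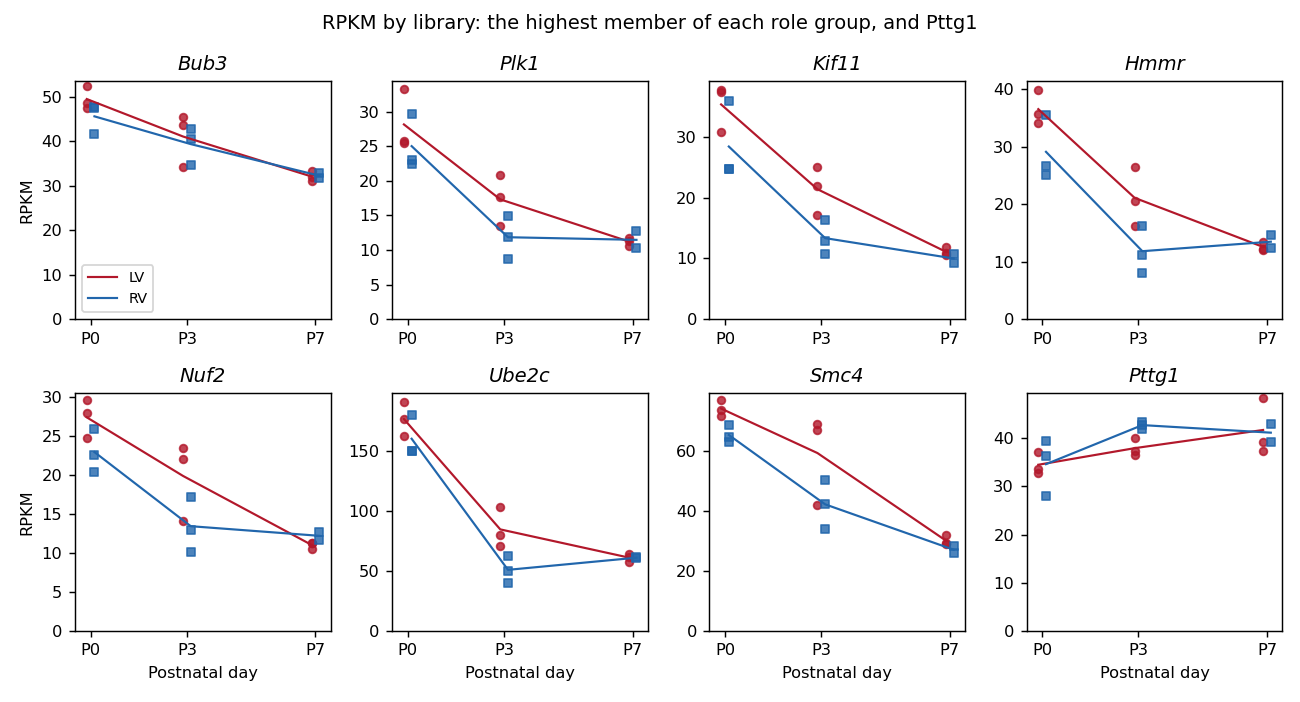
RPKM by postnatal day of the gene with the highest mean in each role group and of Pttg1, with 1 point per library and lines through the group means (LV red circles, RV blue squares). The RV P3 means of Ube2c, Plk1 and Hmmr are near or below their P7 means, although replicate 3 lies above both P7 libraries. Their LV P3 means stay above those of P7. No gene was called for a difference between chambers in its change. Smc4 falls over both steps and Pttg1 does not fall.

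The fall was next split at P3. From P0 to P3, 28 of 38 genes fell in the LV (20.6% of all entries were lower) and 35 fell in the RV (21.5%), where Pttg1 rose (9.72% of all entries were higher). The medians were -0.49 in the LV and -0.73 in the RV, beside -0.13 and -0.09 over all entries. From P3 to P7, 36 genes fell in the LV (27.9% of all entries) and 4 in the RV (14.8%), with medians of -0.67 and -0.26. The 4 were Cenph, Smc2, Smc4 and Ncaph, at -0.64, -0.55, -0.61 and -0.44 (adjusted p = 0.0141, 0.0310, 0.0175 and 0.0465), and the median over all entries was -0.19. A call in 1 chamber and not in the other is not a difference between them, and the difference itself is given below.

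Counts of the P3 steps leaned on single libraries. Without LV P3 replicate 2 the LV count from P0 to P3 was 9, without LV P0 replicate 1 it was 11, and without LV P0 replicate 3 it was 17. Without LV P3 replicate 3 the LV count from P3 to P7 was 23. The RV count of 35 was 26 to 35 when any 1 library was left out. The RV count of 4 was 0 without RV P3 replicate 3 or RV P7 replicate 1, 2 without RV P3 replicate 1, 7 without RV P0 replicate 1, and 8 without RV P3 replicate 2 or LV P3 replicate 2. Restricting the fit to the 10 libraries with Nnt at 1 RPKM or more left 1 P3 and 1 P7 library per chamber. It called 3 genes lower from P0 to P3 in the LV, 24 in the RV, 16 from P3 to P7 in the LV and none in the RV.

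The share of the P0 to P7 log2 fall that was complete at P3 was taken for genes that fell by at least 0.5. Its median was 43.5% in the LV over 37 genes and 76.4% in the RV over 36 genes, beside 47.3% and 53.7% over all entries with such a fall. That share was higher in the RV for all 36 genes with a value in both. These shares use 1 P3 mean per chamber, so genes are not replicates. Taken for each P3 library alone, the median share was 30.0%, 73.7% and 24.6% in LV replicates 1, 2 and 3 (SD 26.9). It was 74.2%, 100.1% and 46.7% in the RV (SD 26.7). The RV library was ahead of the LV library of its number in all 3 cases, but the libraries of the 2 chambers overlapped.

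The role groups' shares follow as a description. In the RV the median share was 110% for the 3 falling anaphase genes, 94.5% for the kinases, 92.7% for spindle assembly, 79.9% for the kinetochore, 73.8% for kinesins, 70.4% for the checkpoint and 57.3% for condensation. In the LV the same groups stood at 50.2%, 53.1%, 53.6%, 36.9%, 44.8%, 43.5% and 34.9%. By the mean of both chambers' shares, Cenph, Smc2 and Smc4 were the slowest, at 23.4%, 24% and 27.5% in the LV and 43.9%, 49.6% and 51.2% in the RV. By the same mean Ube2c, Cenpa and Hmmr were the fastest, at 70.5%, 82.6% and 53.6% in the LV and 120%, 107% and 121% in the RV. Within 1 chamber the order differed: in the LV, Ndc80 (26.7%) was slower than Smc4, and Cdc20 (59.3%), Nusap1 (57.5%), Aurka (57.4%) and Plk1 (54.7%) were faster than Hmmr. In the RV, Kif18a (50.1%) and Ncaph (50.9%) were slower than Smc4. A share above 100% means that the P3 mean was below the P7 mean.

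**Figure D3:**
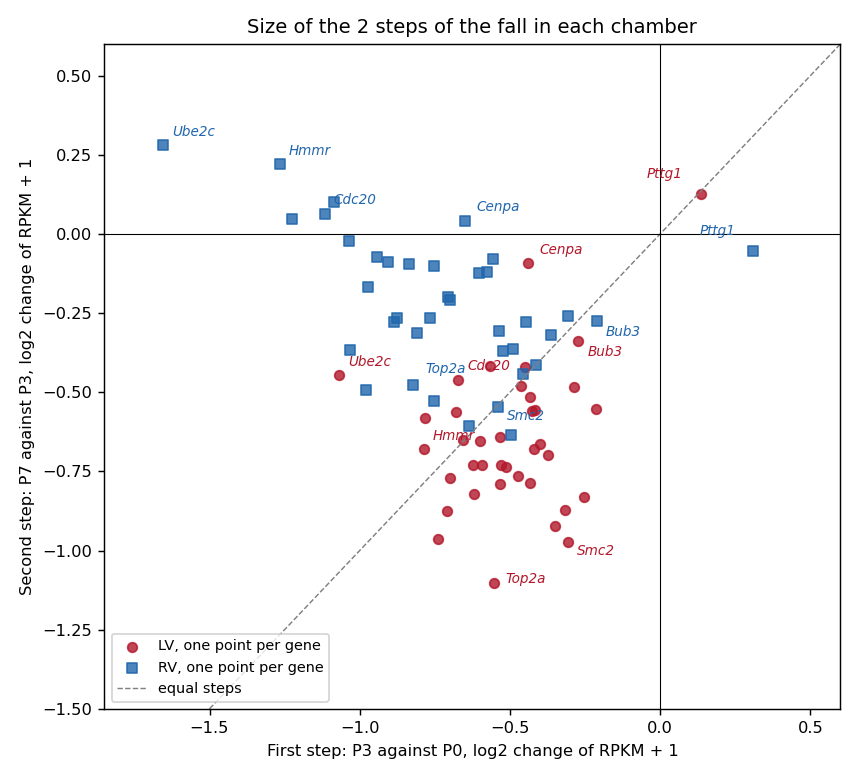
Log2 change of RPKM + 1 from P0 to P3 (x) against that from P3 to P7 (y) for the 38 genes in the LV (red circles) and RV (blue squares); the dashed line marks equal steps. Most LV points lie at or below the line, with Ube2c (-1.07 and -0.45) and Cenpa (-0.44 and -0.09) farthest above it. Most RV points lie above the line, with Ube2c (-1.65 and 0.28) and Hmmr (-1.27 and 0.22) farthest out.

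The 2 steps were compared within each chamber in the same model. In the LV none of the 38 genes differed between the steps by adjusted p (2.21% of all entries lower, 1.62% higher), and 5 did at an unadjusted p under 0.05 (16.4% of all entries). Of those 5, Cenph, Ndc80, Smc2 and Smc4 fell more in the second step (-0.58, -0.55, -0.67 and -0.57). Ube2c fell more in the first step, as it did in the RV (0.62 in the LV). Without LV P3 replicate 2, 4 genes were called lower. In the RV the second step was above the first for 5 genes (2.59% of all entries higher). They were Ube2c at 1.94 ± 0.25 (adjusted p = 5.03e-05), Hmmr at 1.49 ± 0.33 (adjusted p = 0.00982), Aurka at 1.27 ± 0.37 (adjusted p = 0.0437), Cdca3 at 1.19 (adjusted p = 0.0450) and Cdc20 at 1.18 (adjusted p = 0.0264). The median over the set was 0.49, beside -0.09 over all entries. With the replicate number within an age as a block, 8 genes were called (2.8% of all entries higher), the 5 with Plk1, Kif2c and Dlgap5. Ube2c was called in all 29 fits run, Hmmr in 26, Cdc20 in 23, and Aurka and Cdca3 in 14 each. The count was 1 without RV P3 replicate 2, 2 without RV P3 replicate 1 or RV P7 replicate 2, 8 without LV P3 replicate 2, and 10 without RV P3 replicate 3. It was 3 without any single one of LV P0 replicate 3, the LV P7 libraries, RV P0 replicates 1 and 3, and RV P7 replicate 1.

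Chambers were compared at each age. At P0 none of the 38 genes was called (0.0844% of all entries lower and 0.0562% higher), with a median of -0.23 and 4 lower at an unadjusted p under 0.05 (4.72% of all entries). At P3, Ube2c and Hmmr were lower in the RV (0.225% of all entries lower). Ube2c differed by -0.73 ± 0.14 (adjusted p = 0.0144), with an LV mean 1.66 times that of the RV, and its LV and RV libraries did not overlap. Hmmr differed by -0.81 ± 0.19 (adjusted p = 0.0438), with an LV mean 1.78 times that of the RV, and its highest RV library (16.2) lay just under its lowest LV library (16.3). The median over the set was -0.49, beside -0.02 over all entries, and 31 genes were lower at an unadjusted p under 0.05 (6.1% of all entries). At P7 none was called (0.0844% of all entries lower and 0.075% higher), 0 passed an unadjusted p under 0.05 (7% of all entries), and the median was -0.00.

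Same-numbered LV and RV libraries deviated together at every age, so a fit with the number within an age as a block was set beside these counts. At P3 it called 27 of 38 genes lower in the RV, against 3.19% of all entries. It called none at P0 (0.412% of all entries lower and 0.328% higher) or P7 (1.01% and 0.422%). Those left uncalled at P3 were Bub3, Ttk, Melk, Kif15, Kif18a, Kif22, Kifc1, Nusap1, Pttg1, Espl1 and Ncapd2. Within P3 pairs 37, 35 and 36 of the 38 genes were lower in the RV of replicates 1, 2 and 3, with median RV to LV ratios of 0.614, 0.742 and 0.722. Over all entries 64.6%, 41.9% and 58.1% were lower in those pairs. At P0 the counts were 37, 38 and 36, with ratios of 0.916, 0.816 and 0.805, where 54.2%, 68.9% and 63.7% of all entries were lower. At P7 they were 20 and 17 of 38, with ratios of 0.983 and 1.02, where 73.9% and 32.2% of all entries were lower. Each pair at P0 and P3 thus had its median ratio below 1, with the lowest ratios at P3.

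**Figure D4:**
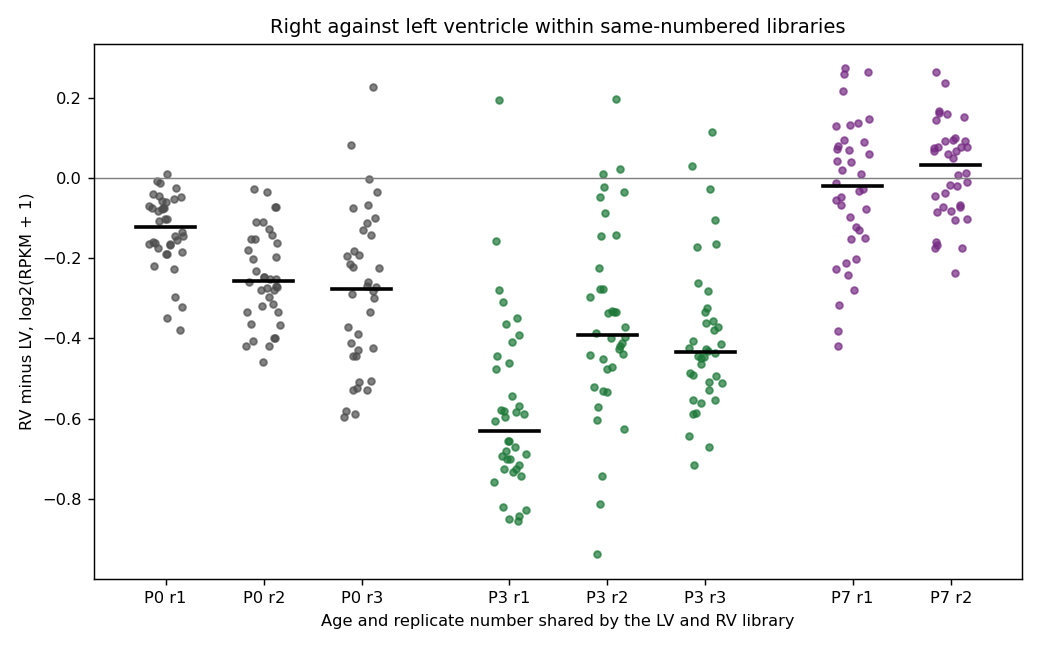
RV minus LV of log2(RPKM + 1) for the 38 genes (points) in each pair of same-numbered libraries, with the median of each pair as a bar and a line at 0. The medians are -0.12, -0.26 and -0.28 at P0, -0.63, -0.39 and -0.43 at P3, and -0.02 and 0.03 at P7.

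The count without the block depended on single libraries: it was 28 without LV P3 replicate 2, 13 without RV P3 replicate 3 and 7 without RV P0 replicate 1. It was 0 without LV P3 replicate 3 or RV P3 replicate 2, and 1 without any single one of 7 others (LV P0 replicate 3, LV P3 replicate 1, the 3 LV P7 libraries taken singly, RV P0 replicate 3, RV P3 replicate 1). The test of whether the change itself differed between chambers called none of the 38 genes over P0 to P3, P3 to P7 or P0 to P7 (0% of all entries over the first and second, and 0.0187% in each direction over the whole span). At an unadjusted p under 0.05 there were 1, 15 and 0 genes, where 5.01%, 4.87% and 4.84% of all entries passed. With the block there were 9, 24 and 7 (12.1%, 11.1% and 11% of all entries), and again none by adjusted p. The 15 and the 24 lay in the P3 to P7 change. Over all entries the block called 0.131% lower and 0.112% higher for P0 to P3, 0% for P3 to P7, and 0.197% lower and 0.159% higher for P0 to P7. Ube2c from P0 to P3 came nearest (-0.59, adjusted p = 0.732 without and 0.0676 with the block).

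Markers of other cell types moved over the same ages and were not part of any fit. The summed RPKM of 10 endothelial markers was 668 to 926 in LV P0, 1377 to 1613 in LV P3 and 1910 to 2119 in LV P7. In the RV it was 706 to 849, 1124 to 1206 and 1342 to 1841. The 10 fibroblast markers summed to 696 to 933, 820 to 1116 and 1239 to 1366 in the LV, and to 624 to 849, 1094 to 1430 and 1333 to 1559 in the RV. At P3 every LV library was above every RV library in endothelial markers, and the fibroblast ranges overlapped. The 7 epicardial markers summed to 48.8 to 50.0 in LV P3 and 72.2 to 101.2 in RV P3, and the 8 measured macrophage markers to 50.1 to 59.4 and 67.1 to 82.1. The smooth muscle and pericyte list of 9 was 696 to 821, 396 to 539 and 520 to 547 at LV P0, P3 and P7. In the RV it was 725 to 847, 444 to 656 and 619 to 747. The lymphoid and granulocyte list of 8 ranged from 6.09 to 25.5 over all groups. The 9 listed erythroid markers were low at P3 (466 to 649) and higher at P0 (1309 to 2956) and P7 (1192 to 1968), with Klf1 under 0.1 RPKM in RV P3, LV P7 and RV P7. The 10 ventricular cardiomyocyte markers summed to 33670 to 38709 in LV P0, 30296 to 37573 in LV P3 and 27977 to 29818 in LV P7. In the RV they summed to 32593 to 41669, 29970 to 32316 and 28594 to 32014, so P7 lay below P0 in both chambers. The atrial list of 8 fell from 869 to 1268 at P0 to 69.4 to 385 later, with Sln under 0.1 RPKM outside LV P0. The Ptprc entry was under 0.1 RPKM in every group, and the Abcc9 entry of the pericyte list likewise. The part of these cell types in the falls and in the chamber difference was not tested.

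Other lists of division genes were set beside the spindle set, and their counts are of calls by P7, where 53% of all entries in the LV and 46.1% in the RV were lower. Of 9 tested cyclin and mitotic entry genes, 9 fell by P7 in the LV, and the RV count was 8, with medians of -1.44 and -1.38. Ccnb1, cyclin B1, had group means of 66.1, 35.8 and 20.0 RPKM in the LV and 62.2, 23.3 and 22.4 in the RV. Cdk1, its kinase, fell with log2 changes of -1.44 and -1.47. Of 9 passenger complex and cytokinesis genes, 9 fell in the LV and 8 in the RV, among them Anln (-1.69 and -1.48), the anillin scaffold of the contractile ring, and Aurkb (-1.06 and -0.94). Of 22 other centromere, kinetochore and checkpoint genes, the LV count was 21 and the RV count 20, with Dsn1 at -1.38 and -1.22. These 3 lists reached 48.0%, 44.2% and 37.8% of their fall by P3 in the LV, and 84.8%, 78.0% and 64.8% in the RV.

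DNA replication genes had reached a smaller share of their fall by P3 than the spindle genes. All 22 tested fell by P7 in both chambers, with medians of -0.98 and -0.88, but 3 fell by P3 in the LV and 7 in the RV, where 20.6% and 21.5% of all entries were lower. By P3 their median shares were 16.7% and 29.6%, against 43.5% and 76.4% for the spindle set. Mcm7, a subunit of the replicative helicase, had means of 50.1, 42.4 and 18.9 RPKM in the LV and 43.8, 35.5 and 19.8 in the RV. From P3 to P7 in the RV, 14 of the 22 replication genes fell, beside 4 of the 38 spindle genes and 14.8% of all entries. The difference in timing between the lists is a description and was not tested.

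Cohesin genes (10 of 11 lower by P7 in each chamber, medians -0.65 and -0.46) and the 2 tested condensin II genes (both lower, medians -0.71 and -0.52) also fell. Of 15 subunits and regulators of the anaphase-promoting complex, 13 fell in the LV, and the RV count was 12, with medians of -0.43 and -0.49, and its chain-elongating enzyme Ube2s fell with log2 changes of -0.93 and -0.91. Of 18 regulators of the E2F, DREAM, FoxM1 and NF-Y systems, 13 fell in the LV and 16 in the RV. Foxm1, the transcription factor of mitotic genes, fell with log2 changes of -0.84 and -0.71, and Mybl2, its partner, by -0.76 and -0.65. Of 5 tested CDK inhibitors, 3 were called lower in each chamber, a share near that of all entries, and none higher. They included Cdkn1b at -0.35 and -0.30 and Cdkn2d at -1.22 and -1.35.

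**Figure D5:**
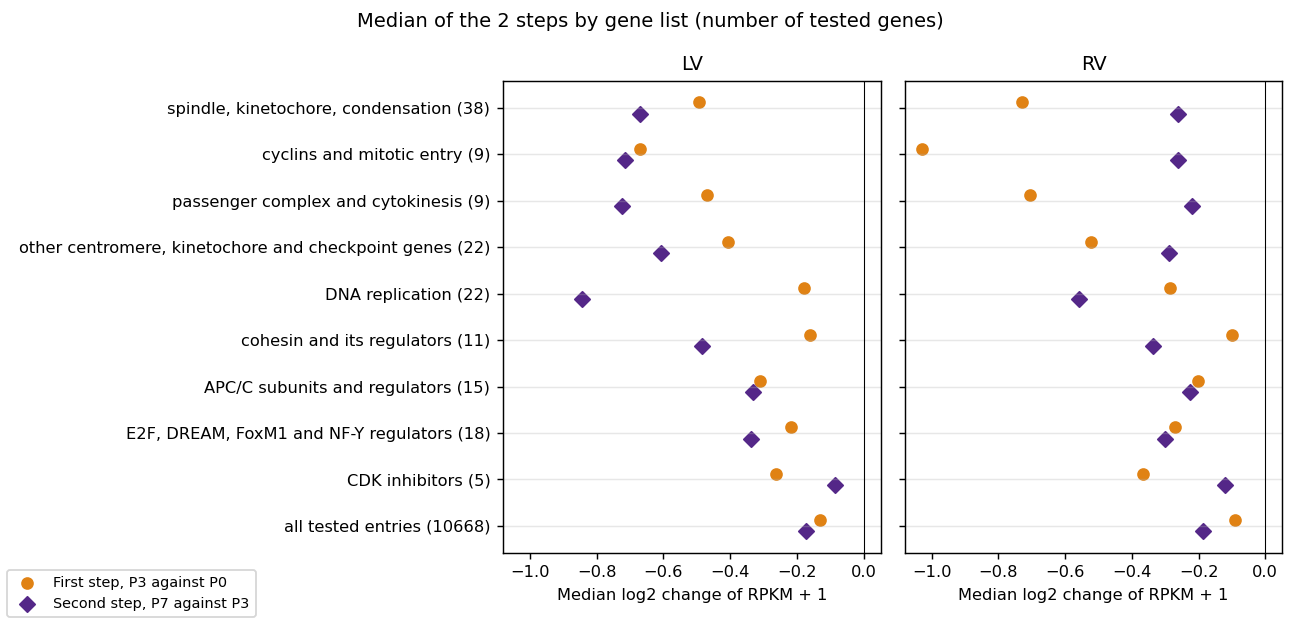
Median log2 change of RPKM + 1 for the spindle set and each comparison list, with the number of tested genes in brackets, from P0 to P3 (orange circles) and P3 to P7 (purple diamonds) in the LV and RV. In the RV the mitotic lists have the larger change before P3 (-0.73 and -0.26 for the spindle set), while DNA replication has it after P3 in both chambers.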

How the data were processed

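The values that the authors deposited, 1 for each RefSeq mRNA entry in a library, were made from reads aligned with STAR 2.4.0j to mm10, per the submitters' processing notes, and are RPKM. The unit was read from the values, whose steps give whole reads (20623 of 20624 entries, or 99.9952%, at a tolerance of 0.02 reads). The depth scale came from the most common match to GENCODE transcript lengths, and 18.1% of the entries compared matched within 5 bases. Library depths are therefore estimates. What tool, annotation and strand setting counted the reads is not given in the sources, so overlapping and antisense genes may share reads. Entries were named with a RefSeq gene table of GRCm38.p6 (20379) and GENCODE M21 (76), and 169 stayed unnamed.

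Entries that reached 1 RPKM in 2 or more libraries were fitted as log2(RPKM + 1) with limma 3.58.1 in R 4.3.3. The model held the 6 group means over all 17 libraries, eBayes used a trend, and 14 comparisons were tested two-sided, each with Benjamini-Hochberg adjustment over the 10668 entries at 0.05. A log2(value + 1) change understates the change of low genes. On simulated data for P7 against P0 in the left ventricle (10668 entries), 49 of 50 entries with a true log2 change of -1 and 50 of 50 with -2 were called, with 15 of 10468 unchanged entries. The simulated counts were drawn independently for each library at 1 fixed dispersion, and only entries averaging at least 2 RPKM were changed. They held no shift of the whole table and no shared deviation of same-numbered libraries. Their call rates therefore need not hold for the measured data. The p-values measure the spread between the deposited samples. Residuals of same-numbered left and right libraries within an age correlated at 0.255 to 0.587 in all 8 pairs (-0.401 to 0.0972 in the other 16), so number within age was used as a block (duplicateCorrelation, correlation 0.406) in an alternative; the labels do not say what the number stands for. Residuals within a group balance out by construction, so the 16 values are not independent of the 8. Tables used Python 3.11.15 and pandas 2.3.3, and figures matplotlib 3.10.9.

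The members, gene lists, motifs and naming rule were chosen with earlier results of these data known. Values in every library are given for the highest gene of each role group, the 3 largest and 3 smallest changes by P7 in each chamber, genes not called lower by P7, up to 3 genes called in each comparison of chambers or steps, and the 3 fastest and 3 slowest. From each related list, only some of the genes its rule allows are named. Alternatives were upper-quartile scaling, a pseudocount of 0.1, no filter, number as a fixed term or block, the sum of a gene's entries, limma voom on the recovered reads, the 10 libraries with Nnt at 1 RPKM or more, and each library left out. Leaving out both P3 replicates 2, both P3 replicates 3 or both P0 replicates 1 was chosen after seeing the data. Where a group kept 1 library, its spread was assumed to be that of the other groups.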

Additional observations from a re-analysis of the deposited data

How the results depend on the processing

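Of 38 genes (41 with no filter), 34 to 39 were called lower by P7 in each chamber under every alternative run. Counts of the steps at P3 varied more. From P0 to P3 in the left ventricle, 28 genes became 13 with upper-quartile scaling, 14 with no filter, 13 with voom on recovered reads, 11 without P3 replicate 2 of both chambers, 14 without P0 replicate 1 of both, and 9 to 31 with 1 library left out (3 in the libraries with Nnt). From P3 to P7 the left ventricle's 36 ranged from 23 to 36 (16 with Nnt). The right ventricle's 4 became 1 with upper-quartile scaling, 1 with no filter, 1 with voom, 15 without P3 replicate 2 of both, 0 without P3 replicate 3 of both, and 0 to 8 with 1 library left out (0 with Nnt).

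For the second step minus the first, the right ventricle's 5 became 8 with upper-quartile scaling, 1 with no filter, 2 without P3 replicate 2 of both, 10 without P3 replicate 3 of both, 3 without P0 replicate 1 of both, and 1 to 10 with 1 library left out (1 with Nnt). The left ventricle's 0 became 7 without P3 replicate 2 of both and 0 to 4 with 1 library left out. Its median of -0.14 was -0.51 to 0.0752 with 1 library left out, and 0.0752 without P3 replicate 3 of both or of the left ventricle alone. For right against left at P3, 2 became 8 with upper-quartile scaling, 0 with no filter, 5 with voom, 6, 1 and 5 without P3 replicate 2, P3 replicate 3 and P0 replicate 1 of both, and 0 to 28 with 1 library left out (0 with Nnt).

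With the replicate number as a fixed term, 8 genes were called for the right ventricle's steps and 8 for right against left at P3. With number within age as a block the counts were 8 and 27. The block moved no other count of the set's genes called lower by over 1.5 times, and 6 genes fell from P3 to P7 in the right ventricle. It also called Pttg1 higher by P7 in the right ventricle. Counts over all entries moved more: for right against left at P3, 340 were called lower with the block and 24 without it. The median share by P3 was 29.5% to 52.9% in the left ventricle and 62.7% to 88.2% in the right with 1 library left out. Without the low-Nnt libraries it was 29.9% and 70.4%. Some of these fits held fewer samples or a larger number of tests, and the cause of the shifts was not tested. At 2 or 3 libraries per group, chamber differences smaller than those of Ube2c and Hmmr were not called in the values as deposited without the block.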
